A study of Homo sapiens with 27 samples.

Results

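PCDH7 was the protein-coding gene with the most transposon insertion sites in each of 9 groups of libraries of HCT116, a long-established line of human colorectal carcinoma cells. The gene spans 426432 bases of chromosome 4, from 30720369 to 31146800 on GRCh38, and is transcribed from the + strand, from the lower coordinate upwards. It was described here together with a flank of the same length on each side (30293937 to 30720368 and 31146801 to 31573232). Of 5641492 sites listed over the 27 libraries, 19745 lay inside PCDH7. A site is 1 position in 1 orientation in 1 library, so a position seen in several libraries or in both orientations counts more than once. Because the gene was chosen by its number of sites in these same libraries, the number of sites, its rank and its recurrence between groups are given as a description with no test. Tests were made only on the orientation of the sites, their position along the gene, their height and the density of the flanks.

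Protocadherins are calcium-dependent adhesion proteins of the cadherin superfamily. PCDH7 is a non-clustered member of the family, a single-pass membrane protein studied for its part in adhesion between neurons and between other cells. The piggyBac transposon is a DNA element that its transposase cuts out and pastes into the genome, almost always at the 4-base target TTAA, which is its own reverse complement, so that an element can enter a target in either orientation. Self-reporting transposons carry a promoter that reads out of the element into the neighbouring DNA, so that insertions can be mapped from RNA.

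All cells carried such a transposon and were kept in puromycin at 3 µg/ml after transfection, with 3 replicate libraries in each group. In 4 groups the transposon was labelled wild-type, and the transposase was piggyBac in WT_PB, its hyperactive form in WT_hyPB, its re-engineered form in WT_rePB and a form with both changes in WT_rehyPB. In 2 groups the transposon was labelled short, with plain piggyBac (short_PB) and with the hyperactive form (short_hyPB). In another 2 it was labelled symmetric, with the re-engineered form alone (sym_rePB) or with both changes (sym_rehyPB). The last group, WT_PBat, held the wild-type piggyBat transposon, a relative of piggyBac from bats, with its own transposase. The study's title names the ends of the transposon and phosphorylation of the transposase as factors. The labels do not say whether replicates were separate transfections, so spread and p-values measure the variation between these libraries only. No expression was measured in these files, and no exon or intron is given for a site because no exon annotation was used here.

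The 12 libraries of the wild-type transposon with piggyBac transposases, called deep here, listed 348652 to 598944 sites each, from file totals of 8118085 to 12051190. The other 15 libraries, called shallow, listed 2846 to 9311 sites, from totals of 142666 to 256608. No shallow library came near a deep one, so depth and type of transposon cannot be told apart. In addition, 2 pairs of libraries shared far more sites than other replicates. WT_hyPB replicates 1 and 2 shared 74.2% and 75.1% of all their sites, and 1375 of their 1715 and 1685 PCDH7 sites. WT_PBat replicates 1 and 3 shared 52.1% and 42.1% of all their sites, and 36 of their 48 and 71 PCDH7 sites. Averaging each linked pair into 1 replicate changed no direction or call of any test on PCDH7.

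Sequence was at hand for 3 windows at gene starts in this region, and they are shown because they hold, or lack, targets whose listings can be read base by base. The sequences are RefSeq's for GRCh38.p14, are written 5′ to 3′ on the strand of the gene, and have each TTAA in capitals. The first is the 250 bases that precede PCDH7 (chr4:30720119-30720368, + strand). The second is a stretch of 30 bases in the first transcribed part of LOC124900844, a predicted protein-coding gene which runs the other way from PCDH7 (chr4:30719072-30719101, − strand). The third is the start window of LINC02497, a long non-coding RNA gene in the upper flank (chr4:31170894-31171193, + strand).
PCDH7: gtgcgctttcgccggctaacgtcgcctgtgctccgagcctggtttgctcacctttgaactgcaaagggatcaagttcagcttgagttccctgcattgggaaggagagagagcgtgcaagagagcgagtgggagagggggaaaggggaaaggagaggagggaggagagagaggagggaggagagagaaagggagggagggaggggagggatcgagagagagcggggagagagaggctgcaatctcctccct
LOC124900844: gatgtctgtctttgtTTAAatgcttgacat
LINC02497: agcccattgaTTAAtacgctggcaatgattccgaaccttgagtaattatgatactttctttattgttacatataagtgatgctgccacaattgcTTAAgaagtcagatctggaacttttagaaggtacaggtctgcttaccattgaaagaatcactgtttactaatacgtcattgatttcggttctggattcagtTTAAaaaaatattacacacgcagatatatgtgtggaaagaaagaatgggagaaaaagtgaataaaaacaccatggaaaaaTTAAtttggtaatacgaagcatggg

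The 300-base start window of PCDH7, which runs 50 bases beyond the printed stretch, held no TTAA, and no library listed a site in it. Of all 35116 RefSeq start windows, 46.1% held at least 1. The target at the start of LOC124900844 (30719083 to 30719086) was listed in 6 libraries, all of them deep, always on the − strand and with heights of 24 to 59. Of the 4 targets in the LINC02497 window, those at 31170904 and 31170988 were listed in 2 deep libraries each, and those at 31171089 and 31171169 in none. Over all such windows in the genome, 95.3% to 100% of the sites of a library lay exactly on a TTAA, from 43 to 3748 sites per library.

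Among all sites, the share in PCDH7 was lowest with the wild-type piggyBac transposon and highest with the symmetric one. The libraries of WT_PB held 1686, 1513 and 1615 PCDH7 sites, those of WT_hyPB 1715, 1685 and 1811, those of WT_rePB 1452, 1478 and 1487, and those of WT_rehyPB 1230, 1253 and 1380. The shallow libraries held far fewer, with 115, 112 and 97 for short_PB, 152, 136 and 126 for short_hyPB, 77, 84 and 82 for sym_rePB, 94, 96 and 110 for sym_rehyPB, and 48, 40 and 71 for WT_PBat. Per 10000 sites of the library, however, every shallow library lay above every deep one.

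The group means were 264 ± 28.9 per 10000 sites in sym_rePB and 241 ± 8.03 in sym_rehyPB, and the ranges of these groups overlapped (SD, n = 3 here and below). The short transposon followed with 185 ± 18.7 in short_hyPB and 117 ± 11.1 in short_PB. WT_PBat had 67.6 ± 10.9. The deep groups came last, with 38.4 ± 0.85 in WT_hyPB and 38.1 ± 2.87 in WT_PB, which overlapped, then 33.1 ± 2.11 in WT_rehyPB and 25.3 ± 0.74 in WT_rePB. All other neighbours in this order had ranges that did not overlap.

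When only the tallest 2846 sites of each library were kept, the number in the smallest library, the order of the groups changed. The deep groups then held 305 ± 17.3 (WT_hyPB), 251 ± 28.6 (WT_PB), 228 ± 27.4 (WT_rePB) and 162 ± 58.7 (WT_rehyPB) PCDH7 sites per 10000. The shallow groups, from which fewer sites had to be dropped, held 269 ± 24.7 (sym_rePB), 253 ± 6.09 (sym_rehyPB), 204 ± 12.2 (short_hyPB), 116 ± 6.09 (short_PB) and 74.96 ± 8.11 (WT_PBat). The widest spread was in WT_rehyPB, whose replicates gave 109, 225 and 151. At equal numbers, WT_PB thus lay above short_PB and WT_hyPB above short_hyPB, without overlap, which is the reverse of the order over all sites. The kept sites were not of equal height: the lowest kept was 100 to 110 in deep libraries and 5 to 10 in shallow ones.

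**Figure D1:**
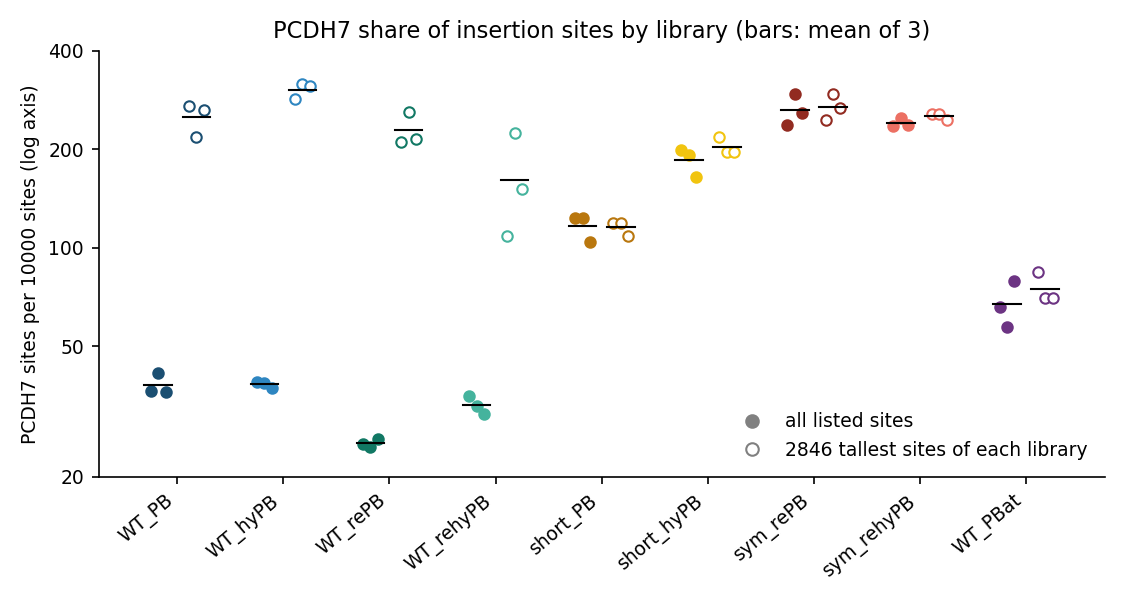
PCDH7 sites per 10000 sites (log axis) in each of the 27 libraries, by group; filled points use all listed sites, open points the 2846 tallest sites of each library, and bars are means of 3. Over all sites the deep groups lie at 25.3 to 38.4 and the symmetric groups at 241 and 264, whereas over the tallest sites the deep groups lie at 162 to 305.

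Next to other genes, PCDH7 stood well ahead in number. The gene with the next most sites was ZBTB20, a zinc finger repressor, in WT_PB and WT_hyPB, VTI1A, a vesicle SNARE protein, in WT_rePB, WT_rehyPB and the short and symmetric groups, and VMP1, a membrane protein of autophagy, in WT_PBat. PCDH7 held between 2.01 and 2.99 times as many sites as the runner-up of the group. Per base of gene it ranked 6 to 22 among 19970 protein-coding genes in the piggyBac groups and 231 in WT_PBat. Among the 3351 genes of at least 100 kb it ranked 1 in 8 groups and 5 in WT_PBat.

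The density inside PCDH7 stood far above that of its surroundings. With replicates summed, PCDH7 held 26.9 times the genome's mean density of sites in WT_PB, 27.3 times in WT_hyPB, 18.0 times in WT_rePB and 23.4 times in WT_rehyPB. The same ratio was 83.1 (short_PB), 132 (short_hyPB), 187 (sym_rePB), 171 (sym_rehyPB) and 48.7 (WT_PBat). The genome's mean was taken over chromosomes 1 to 22 and X. A deep library listed on average 3.58 sites per kb in the gene, 0.279 in the lower flank, 0.417 in the upper flank and 0.153 over the genome.

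Each flank taken as a whole was above the genome's mean in 8 of 9 groups, though far below the gene. In deep groups the summed sites were 316 in the lower and 457 in the upper flank for WT_PB, 418 and 612 for WT_hyPB, 434 and 672 for WT_rePB, and 262 and 392 for WT_rehyPB. In shallow groups they were 8 and 6 for short_PB, 8 and 7 for short_hyPB, 3 and 2 for sym_rePB, 8 and 2 for sym_rehyPB, and 2 and 2 for WT_PBat. Of the lower-flank sites of the short and symmetric groups, 25 lay in the last 10 kb before PCDH7. The positive lower-flank values of these groups thus rest on the edge next to the gene and not on the flank at large. Over the 9 group means, log2 density relative to the genome was 1.12 in the lower and 1.06 in the upper flank (exact sign-flip permutation, two-sided, adjusted p = 0.0104 for both, positive in 8 of 9 groups, the exception being WT_PBat). These values have 0.5 site added to each count, which raises those of the shallow libraries. In sym_rePB only 0.401 to 0.455 sites were expected per flank, so its positive sign was fixed in advance. With replicates summed and nothing added, the values over the 9 groups were 0.94 (exact permutation, adjusted p = 0.0156) and 0.84 (adjusted p = 0.026). Over sites of height 10 or more, with the added count, the upper flank gave 1.84 (exact permutation, adjusted p = 0.00521). There the genome's mean gave only 0.043 to 0.416 expected sites per flank in the shallow libraries. The added 0.5 site thus made even a flank with no site positive. With the sign of the 5 shallow groups fixed in advance, this value decides nothing about the flanks. In the 4 deep groups alone the values were 0.86 and 1.44, where 0.125 is the smallest exact permutation p that 4 groups allow.

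Counted over all sites in steps of 10 kb with libraries summed, the lower edge of the dense region differed between deep and shallow libraries. In the deep libraries the steps from 20 kb before the start of the gene held 32, 210, 302, 412 and 525 sites, up to 30 kb inside it. The short and symmetric libraries held 0, 25, 1, 1 and 42 sites in the same steps. Their 25 sites just before the start were thus followed by 20 kb of the gene with 2 sites in all. WT_PBat held 0, 2, 0, 0 and 1. Over equal numbers of tallest sites, the deep groups also had few sites at the start of the gene. This was counted in steps of 21.3 kb. From 21.3 kb before the start, these steps held 4, 2 and 17 sites in WT_PB and 7, 1 and 11 in WT_hyPB. They held 5, 0 and 13 in WT_rePB and 3, 2 and 10 in WT_rehyPB. The difference in the lower edge thus holds over all sites only.

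At the upper end the density fell inside the gene. From 50 kb before the end to the end itself, the deep libraries held 376, 268, 86, 107 and 131 sites per step, and 65 and 71 in the next 2 steps outside it. The short and symmetric libraries held 23, 2, 0, 1 and 0 sites in the steps inside, and WT_PBat 2, 0, 0, 0 and 0. The steps nearest the annotated end were thus already sparse in each set of libraries.

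Other annotated genes lay nearby. LOC124900844 starts 1.25 kb from PCDH7 and held 77 sites in deep and 1 in shallow libraries, or 2.58 sites per kb and deep library. The pseudogene MTCYBP43 lies inside PCDH7 and held 36 deep and 1 WT_PBat site. In the upper flank, LINC02497 held 162 deep sites and 1 from short and symmetric libraries, LINC02501 held 84 and LOC105374564 held 3 deep sites. The nearest protein-coding genes beyond the flanks were STIM2, a calcium sensor of the endoplasmic reticulum, 3695 kb below, and ARAP2, a GTPase-activating protein, 4859 kb above. Per kb and deep library they held 0.278 and 0.218 sites.

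Over all listed sites, those of the deep libraries spread over nearly the whole length of the gene, whereas those of the shallow libraries gathered in its first part. The gene was divided into 20 windows of 21.3 kb. The first window held 792 of 18305 deep sites, and 2 of 1440 shallow sites, both in short_PB. Its group mean was 3.72% to 4.50% of the PCDH7 sites in the deep groups. Over equal numbers of tallest sites, this mean was 0% to 1.04% in the deep groups.

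Windows 2 to 7, from 21.3 to 149 kb, held most of the shallow sites. Their share was 65.5% ± 3.38 (short_PB), 61.8% ± 2.13 (short_hyPB), 59.1% ± 6.13 (sym_rePB), 60.5% ± 3.60 (sym_rehyPB) and 56.1% ± 3.95 (WT_PBat). In deep groups it was 39.3% ± 1.19 (WT_PB), 36.3% ± 0.45 (WT_hyPB), 38.2% ± 0.35 (WT_rePB) and 40.6% ± 2.35 (WT_rehyPB). The lowest shallow library, at 52.1%, lay above the highest deep one, at 43.3%.

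A gap further along the gene was common to all groups, and, over all sites, a local peak behind it to the shallow ones. Window 13, from 256 to 277 kb, held 343 deep sites, the fewest between windows 1 and 20 in those libraries, and 4 shallow ones. Window 15, from 299 to 320 kb, held 5.03% to 5.47% of sites in the deep groups, 6.43% ± 1.47 (short_PB), 11.6% ± 1.12 (short_hyPB), 10.3% ± 1.77 (sym_rePB), 10.4% ± 1.20 (sym_rehyPB) and 11.97% ± 3.06 (WT_PBat). In each shallow group it held more sites than windows 14 and 16 beside it, whereas in each deep group window 16 held more. Over equal numbers of tallest sites, window 15 held more than windows 14 and 16 in each deep group too. In that order, windows 14, 15 and 16 held 3, 19 and 9 sites in WT_PB and 6, 23 and 16 in WT_hyPB. They held 5, 11 and 10 in WT_rePB and 6, 7 and 4 in WT_rehyPB, where the lead of window 15 was narrow. Over all sites, windows 19 and 20 held 430 and 257 deep sites, and 3 and 1 shallow ones.

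The densest window differed between groups. It was window 3 (42.6 to 64.0 kb) in WT_PB and WT_rehyPB, window 6 (107 to 128 kb) in WT_rePB and WT_PBat, and window 16 (320 to 341 kb) in WT_hyPB. It was window 4 (64.0 to 85.3 kb) in short_PB and sym_rePB, and window 7 (128 to 149 kb) in short_hyPB and sym_rehyPB. Its share was 6.66% to 7.41% in the deep groups and 12.8% to 18.8% in the shallow ones. The sparsest was window 20 in the deep groups and in short_PB, where it held 1 site. In the other 4 groups the first window held none, tied with windows 19 and 20 in short_hyPB, with window 20 in sym_rePB, and with windows 13, 19 and 20 in sym_rehyPB and WT_PBat.

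As a description, profiles over the 20 windows were correlated between groups. Pearson's r was 0.93 to 0.98 between deep groups and 0.90 to 0.96 among the short and symmetric groups. It was 0.57 to 0.83 between these sets, 0.43 to 0.55 between deep groups and WT_PBat, and 0.65 to 0.73 between WT_PBat and the short and symmetric groups. Over the tallest 2846 sites, r between deep groups and the short and symmetric ones was 0.74 to 0.88. All groups share the same target sequence, and the shallow profiles rest on 159 to 414 sites each.

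**Figure D2:**
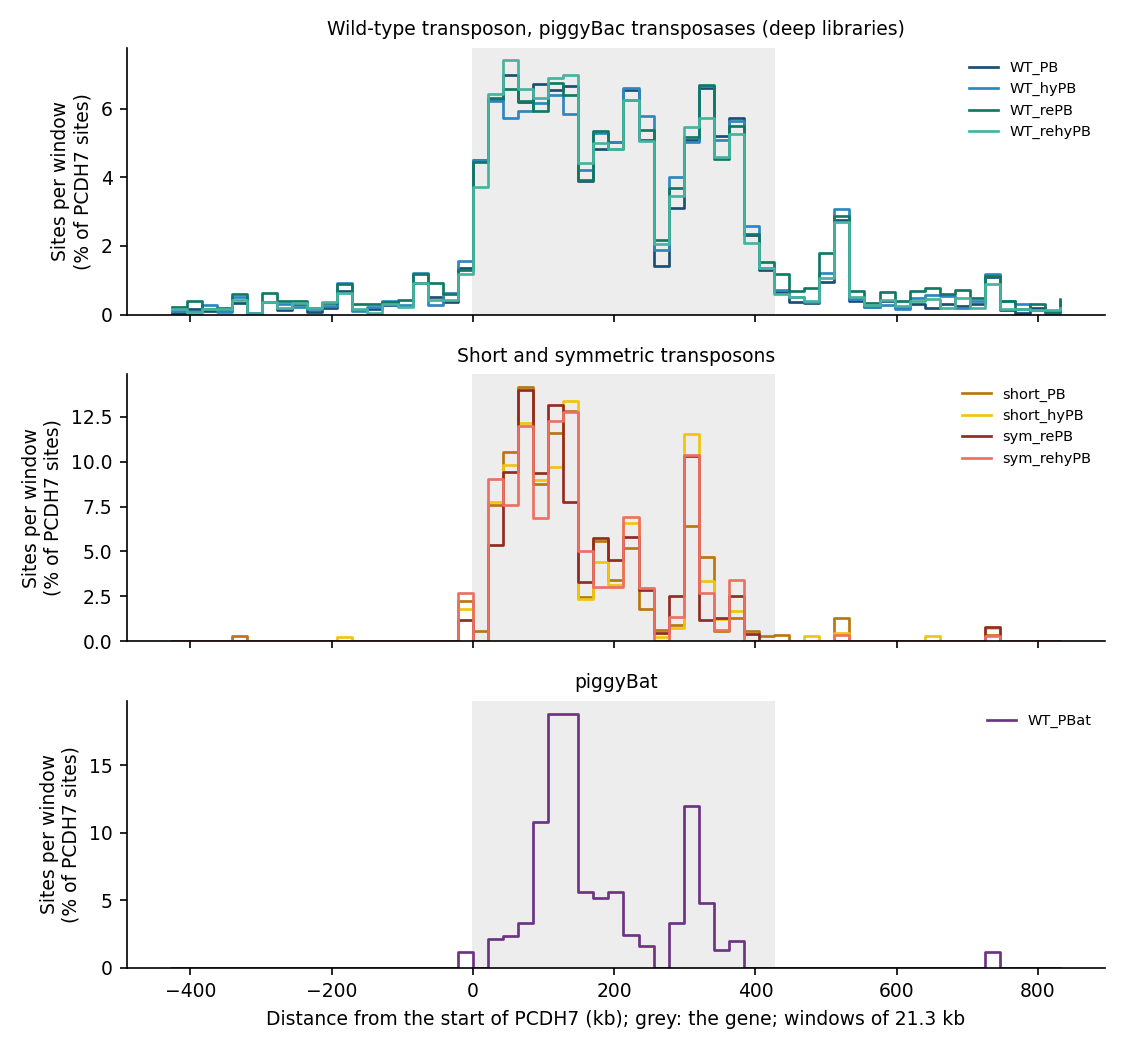
Share of PCDH7 sites in windows of 21.3 kb against distance from the start of the gene, in kb, as means of 3 libraries per group; grey marks the gene, and values outside it are relative to the sites inside. Over all sites, the deep groups fill the gene up to window 18, and all groups dip in window 13. The short, symmetric and piggyBat groups hold 56.1% to 65.5% of all their sites between 21.3 and 149 kb. Over equal numbers of tallest sites, the deep groups hold 52.2% to 59.0% there, and the other groups 53.3% to 63.7%.

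The median distance of the sites from the start of PCDH7 put numbers on this. The WT_PB libraries gave 182, 175 and 183 kb, those of WT_hyPB 188, 188 and 192 kb, those of WT_rePB 182, 183 and 183 kb, and those of WT_rehyPB 165, 180 and 180 kb. With the short transposon the values were 114, 129 and 119 kb for short_PB and 135, 129 and 126 kb for short_hyPB. With the symmetric one they were 136, 116 and 129 kb for sym_rePB and 136, 129 and 117 kb for sym_rehyPB. WT_PBat had 137, 142 and 142 kb. Every deep library lay above every shallow one.

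With the short transposon the median site lay nearer the start than with the wild-type transposon, by −59.3 kb under piggyBac and −59.2 kb under hyperactive piggyBac. The mean of both pairs was −59.2 kb (exact permutation within pairs, two-sided, p = 0.005, the smallest these 400 arrangements allow, adjusted p = 0.0188 over 15 tests). With the replicate number as a block, which these libraries support only in part, the same value has an exact permutation p of 0.0313, the smallest it allows, and an adjusted p of 0.117. The symmetric transposon differed by −55.6 kb under re-engineered and −47.8 kb under re-engineered hyperactive piggyBac, with a mean of −51.7 kb (exact permutation p = 0.005, adjusted p = 0.0188). In all 4 pairs the ranges of the libraries did not overlap. WT_PBat differed from WT_PB by −39.6 kb, again without overlap, but 3 against 3 libraries cannot give an exact permutation p below 0.1 (adjusted p = 0.188).

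The differences were smaller over equal numbers of sites. At equal numbers of tallest sites in both arms, the short-transposon effect was −16.6 kb (exact permutation, adjusted p = 0.0375), the symmetric-transposon effect −14.0 kb (adjusted p = 0.1, no longer past the threshold of 0.05) and the piggyBat difference −1.26 kb (adjusted p = 0.794). Over sites of height 10 or more, a limit that leaves the numbers unequal, they were −62.3, −37.3 and −23.9 kb. For the tallest 2846 sites the medians of the deep groups were 134 to 145 kb, against 110 to 131 kb with the short and symmetric transposons and 151 ± 14.4 kb in WT_PBat.

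No effect of the form of the transposase on position passed the threshold. The hyperactive effect was 2.87 kb over 4 pairs (exact permutation, adjusted p = 0.532) and the re-engineering effect −5.72 kb over 2 pairs (adjusted p = 0.358). Without sym_rePB replicate 2 the first was 1.49 kb, and without WT_rehyPB replicate 1 the second was −3.15 kb. The pairs behind the re-engineering effect were 2.64 kb for WT_rePB against WT_PB and −14.1 kb, without overlap, for WT_rehyPB against WT_hyPB. An exact permutation test of the difference between these 2 pairs gave p = 0.005. Adjusted over 12 such tests it was 0.06, short of the threshold.

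**Figure D3:**
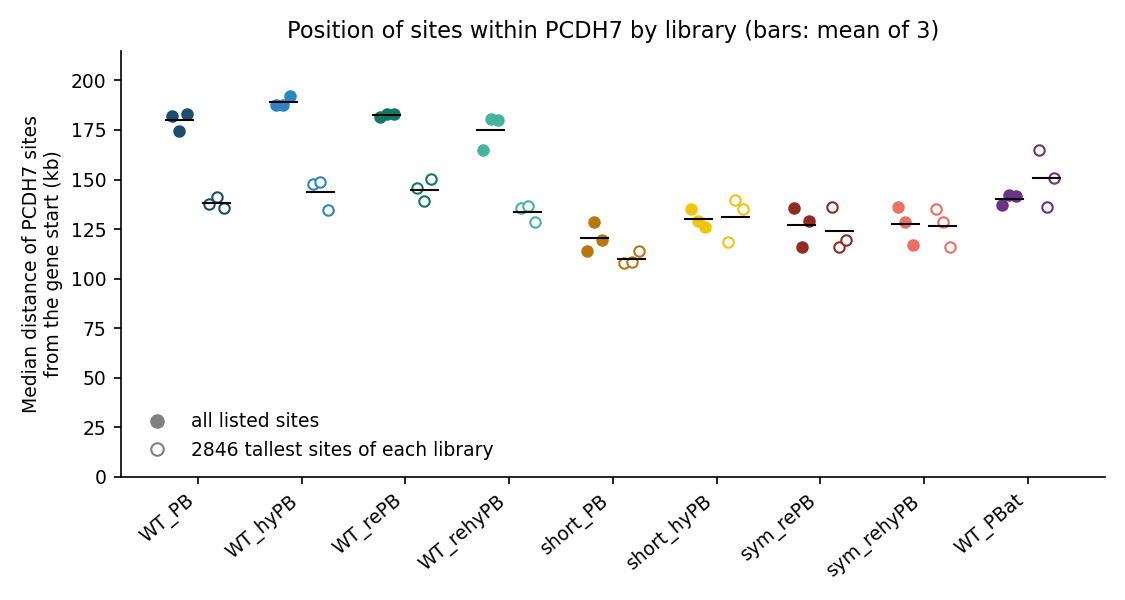
Median distance of PCDH7 sites from the start of the gene, in kb, in each of the 27 libraries, by group; filled points use all sites, open points the 2846 tallest sites of each library, bars are means of 3. Filled points lie at 165 to 192 kb in deep and 114 to 142 kb in shallow libraries, and the open points of the deep groups lie lower, with means of 134 to 145 kb.

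Height, the maximum coverage of the peak at a site, was higher in PCDH7 than elsewhere in the deep libraries. It is coverage from amplified reads and not a number of molecules, and no site under a height of 5 was listed. The median height of PCDH7 sites was 18, 19 and 19 (WT_PB), 18, 18 and 17 (WT_hyPB), 15, 18 and 16 (WT_rePB), and 17, 20 and 15 (WT_rehyPB). The median over all sites was 10 to 13 in these libraries. In the shallow libraries both medians were 6 to 9 and so lay near the lowest height listed. The tallest PCDH7 site of a library reached 239 to 327 in deep and 19 to 48 in shallow libraries.

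Relative height is the log2 ratio of the median height in PCDH7 to that of the whole library, and 0 means no difference. It was 0.68 ± 0.03 (WT_PB), 0.73 ± 0.03 (WT_hyPB), 0.57 ± 0.13 (WT_rePB) and 0.49 ± 0.12 (WT_rehyPB). It was 0.07 ± 0.13 (short_hyPB), 0.19 ± 0.18 (WT_PBat) and exactly 0 in every library of short_PB, sym_rePB and sym_rehyPB. Over the 9 group means it was 0.30 (exact sign-flip permutation, two-sided, p = 0.0313, adjusted p = 0.0313, above 0 in 6 of 9 groups). With short_PB, sym_rePB and sym_rehyPB at exactly 0, this test allows no smaller p. Without replicate 3 the value was 0.31 (exact permutation, adjusted p = 0.0625). The mean of short_hyPB was then 0 too, so no p could pass the threshold and this setting decides nothing. Over sites of height 10 or more the value was 0.23 (exact permutation, adjusted p = 0.0625), short of the threshold.

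Among 138 protein-coding genes with at least 100 sites in every deep library, PCDH7 ranked 3 by mean relative height, with 0.61. The median of these genes was −0.01 and their range was −0.40 to 0.66. Tall sites in the deep libraries were more often in PCDH7 than low ones. Per 10000 sites of the class of height, its share went from 23.4 ± 1.27 at heights of 5 and 6 to 115 ± 7.65 at 50 and above in WT_PB, and from 22.2 ± 1.04 to 150 ± 11.5 in WT_hyPB. In WT_rePB it went from 17.2 ± 1.42 to 88.1 ± 2.54, and in WT_rehyPB from 25.9 ± 4.30 to 79.1 ± 9.07.

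The tall sites also lay nearer the start. The median distance was 175 to 210 kb in the deep groups for sites of height 5 and 6, and 145 to 148 kb for sites of 50 and above. These are values of the same libraries, given with no test.

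**Figure D4:**
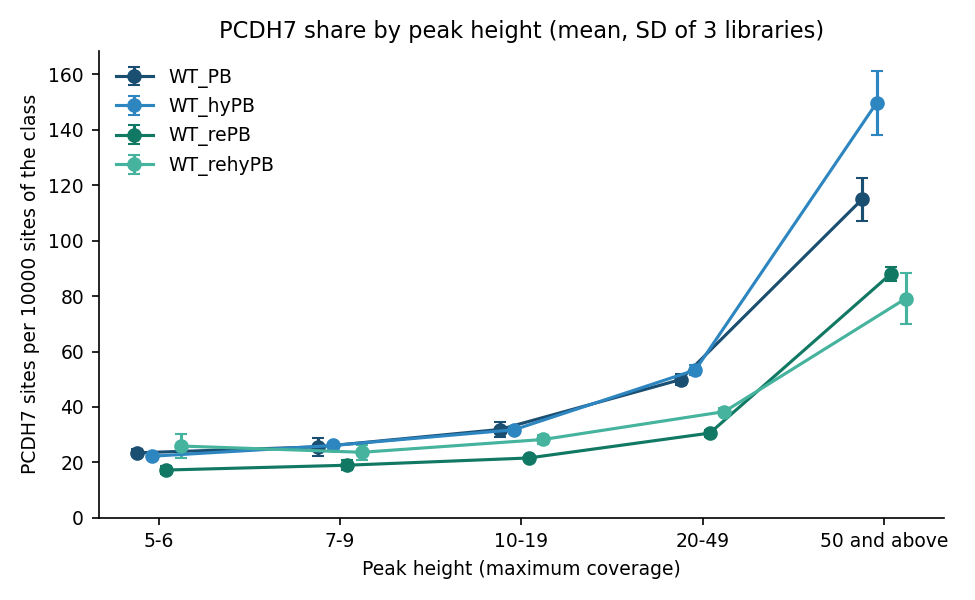
PCDH7 sites per 10000 sites of each class of peak height (maximum coverage, classes 5 to 6 up to 50 and above) in the 4 deep groups; points are means and bars SD of 3 libraries. The share is 17.2 to 25.9 in the lowest class and 79.1 to 150 in the highest.

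Between groups, relative height was lower with the short transposon (−0.67 on the log2 scale, exact permutation p = 0.005, which no arrangement can undercut, adjusted p = 0.0188) and with the symmetric transposon (−0.53, exact permutation p = 0.005, adjusted p = 0.0188). With the replicate block both had an adjusted p of 0.117 in the exact permutation test. Both arms of these comparisons differ in depth, and in the shallow arm medians lay within 2 of the lowest height listed in the short and symmetric groups. At equal numbers of tallest sites the effects were −0.06 (exact permutation, adjusted p = 0.427) and −0.09 (adjusted p = 0.137), neither past the threshold. Re-engineering gave −0.18 (exact permutation p = 0.02, adjusted p = 0.06) and the hyperactive form 0.01 (adjusted p = 0.798). The re-engineering effect passed the threshold at −0.21 without WT_rePB replicate 2 (exact permutation, adjusted p = 0.015) and at −0.15 with equal numbers of tallest sites (adjusted p = 0.0375). WT_PBat against WT_PB gave −0.49 (exact permutation p = 0.1, the smallest possible).

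Sites on the + strand, the sense of PCDH7, were slightly fewer than those on the − strand. Their share was 47.1% ± 0.39 (WT_PB), 47.7% ± 0.44 (WT_hyPB), 47.4% ± 0.58 (WT_rePB) and 46.9% ± 1.297 (WT_rehyPB). It was 47.7% ± 3.94 (short_PB), 45.9% ± 0.57 (short_hyPB), 47.3% ± 4.49 (sym_rePB), 48.4% ± 1.57 (sym_rehyPB) and 42.8% ± 4.61 (WT_PBat). The rest of each library had group means of 48.4% to 50.04%.

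The difference from the rest of the library was −2.90 percentage points over the 9 group means, and it was below 0 in 9 of 9 groups (exact sign-flip permutation, two-sided, p = 0.00391, the smallest 9 groups allow, adjusted p = 0.0104). In the 4 deep groups it was −2.59 points, and over sites of height 10 or more in all groups −8.21 points (exact permutation, adjusted p = 0.00521). At that height the deep libraries ranged from −6.37 to −1.79 points, on 866 to 1265 PCDH7 sites each. The shallow ones ranged from −33.0 to 0.93 points, on only 9 to 34 sites each. Over all sites, the direction was not held by every library: 1 library each of short_PB, sym_rePB and sym_rehyPB lay above the rest of its sites.

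Most other genes rich in sites also had fewer sense than antisense sites in the deep libraries. Among 116 protein-coding genes with at least 100 sites in every deep library and a known strand, 111 had a sense share under 50%. PCDH7 had 47.3% and ranked 101 from the lowest, above the median of 40.7%, in a range of 20.9% to 52.4%. It was thus nearer to an even split than most of them.

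No comparison between groups passed the threshold for orientation. The effects were −0.19 points for the hyperactive form, −0.22 for re-engineering, −0.56 with short and 0.69 with symmetric transposons, with exact permutation p-values of 0.66 to 0.842. WT_PBat differed from WT_PB by −4.26 points without overlap (exact permutation p = 0.1, the smallest possible), and by −1.61 points without WT_PBat replicate 2. Without short_PB replicate 1 the short-transposon effect was −1.67 points and passed the threshold (exact permutation, adjusted p = 0.015), and without short_PB replicate 2 it was 0.21. Over sites of height 10 or more the short and symmetric effects were −6.37 (exact permutation, adjusted p = 0.06) and −9.79 points (adjusted p = 0.275), and over equal numbers of tallest sites 2.70 (adjusted p = 0.364) and 5.02 points (adjusted p = 0.137).

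**Figure D5:**
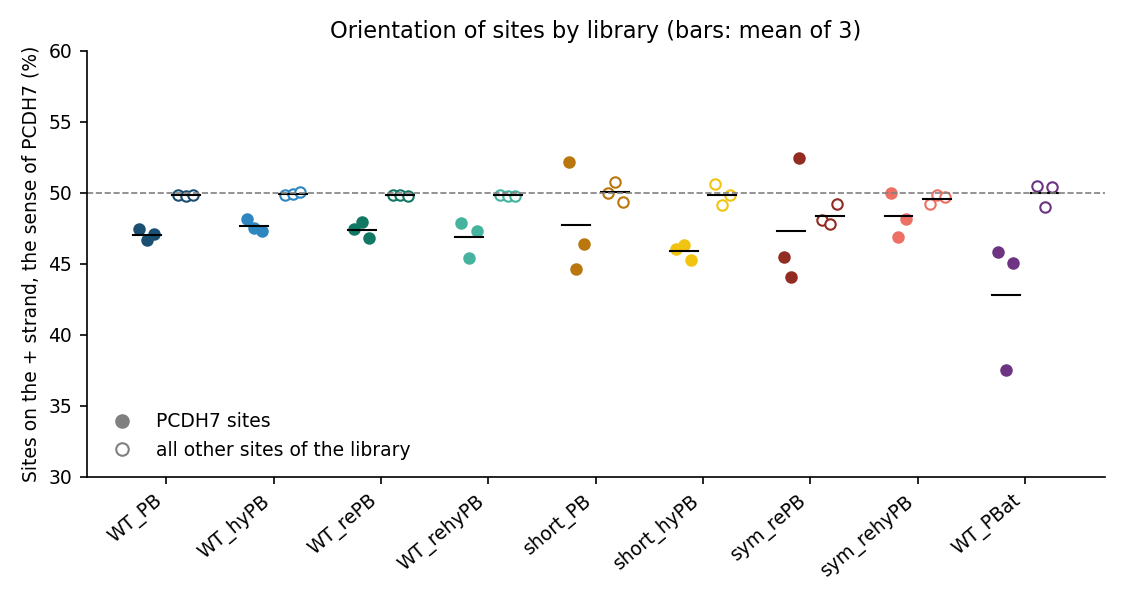
Share of sites on the + strand, in percent, in each of the 27 libraries, by group; filled points are PCDH7 sites, open points all other sites of the library, bars are means of 3, and the dashed line marks 50%. The axis runs from 30% to 60%. Group means of PCDH7 lie at 42.8% to 48.4%, below those of the other sites in 9 of 9 groups.

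Many targets in PCDH7 were listed in both orientations. Within a deep library, 17.0% ± 0.78 (WT_PB), 17.6% ± 0.44 (WT_hyPB), 15.03% ± 1.29 (WT_rePB) and 14.3% ± 0.50 (WT_rehyPB) of PCDH7 positions carried both. Over all positions of these libraries the group means were 3.79% to 6.52%. In shallow libraries the share was 2.51% ± 0.35 (short_PB) against 1.02% ± 0.12 over all positions, and 6.08% ± 1.51 (short_hyPB) against 2.36% ± 0.09. In sym_rePB, sym_rehyPB and WT_PBat it rested on 0 to 5 positions per library.

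Over the 27 libraries, PCDH7 sites fell on 3499 distinct positions, or 8.21 per kb and 1 per 122 bases on average. Of these, 1661 (47.5%) were seen in both orientations, in the same or in different libraries, 829 (23.7%) in 1 library only and 506 in 10 or more. The deep libraries covered 3433 positions, the short and symmetric ones 480 and the piggyBat ones 110. By number of groups, 996 positions occurred in 1 group, 633 in 2, 627 in 3 and 912 in 4. Then 176 occurred in 5 groups, 72 in 6, 42 in 7, 37 in 8 and 4 in all 9. Positions in 4 groups thus outnumbered those in 2 or 3, and 4 is also the number of deep groups.

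Recurrence between replicates was higher in PCDH7 than over all sites of the same libraries. Leaving out the linked pairs, the mean share of PCDH7 sites found again in another replicate was 49.5% in WT_PB (18.1% over all sites), 57.9% in WT_hyPB (24.7%), 43.6% in WT_rePB (14.9%) and 39.9% in WT_rehyPB (12.1%). For the short transposon it was 21.4% in short_PB (7.27%) and 38.3% in short_hyPB (22.5%), for the symmetric one 35.8% in sym_rePB (20.1%) and 33.1% in sym_rehyPB (19.9%), and for WT_PBat 15.7% (8.90%). The part that the density of the region has in these shares was not tested. In all 3 replicates were 522 of 2954 WT_PB sites, 892 of 2697 WT_hyPB sites, a group with a linked pair, 386 of 2878 WT_rePB sites and 295 of 2617 WT_rehyPB sites. Among the shallow groups these were 7 of 262 sites (short_PB), 35 of 291 (short_hyPB), 17 of 173 (sym_rePB), 19 of 220 (sym_rehyPB) and 6 of 114 (WT_PBat).

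By number of libraries, several of the positions listed most often were on opposite strands with different transposons. At 30780206, 31035566 and 31103639, though, fewer deep libraries also listed the strand of the other transposons, with peaks that reached greater heights. The strand is that of the peak, and the labels do not say which end of each transposon was read. Position 30780206, 59.8 kb into the gene, was listed in 23 libraries. All 12 deep libraries had it on the − strand, with 2 of them also on the + strand, and 11 short or symmetric libraries had it on the + strand only. In deep libraries its heights were 20 to 70 on the − strand, and 163 (WT_PB) and 160 (WT_rePB) on the + strand. Their median over both strands was 37.5. In the short or symmetric libraries the heights were 6 to 48, with a median of 21. No WT_PBat library listed it.

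Position 31035566, at 315 kb, in window 15, was also listed in 23 libraries and was 1 of the 4 positions in all 9 groups. It was on the + strand in 12 deep libraries and on the − strand in 4 of these, on the − strand in 7 and the + strand in 1 of 8 short or symmetric libraries, and on the − strand in 3 of 3 WT_PBat libraries. Its heights in deep libraries were 12 to 55 on the + strand and 59 to 127 on the − strand. They were 5 to 43 in short or symmetric and 9 to 16 in WT_PBat libraries.

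Position 31103639, at 383 kb, was listed in 22 libraries, on the + strand in 12 deep ones, of which 8 also had the − strand, and on the − strand alone in 10 short or symmetric ones. Its heights in deep libraries were 8 to 61 on the + strand and 32 to 108 on the − strand. Position 30745664, at 25.3 kb, in 21 libraries, had both strands in the deep set, with 7 libraries on the + and 8 on the − strand. It lay on the − strand in 9 of 9 short or symmetric libraries. Its deep heights were 5 to 9 on the + strand, the only one in WT_hyPB, and 123 to 157 on the − strand. Its median height of 123 over both strands in the deep set was the highest of these 6 positions. Position 30819099, at 98.7 kb, in 21 libraries, had both orientations in both sets (11 and 8 deep, 5 and 7 short or symmetric). Position 30790622, at 70.3 kb, in 20 libraries, was on the − strand in 12 of 12 deep libraries, and on the + strand in 7 of 7 short or symmetric libraries, 1 of which had the − strand too, and in 1 WT_PBat library. The other positions in all 9 groups were 30795436 and 30828361, at 75.1 and 108 kb, in 20 libraries each.

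Over all PCDH7 sites of the shallow groups, only a minority of those at deep positions had the opposite orientation alone, but a larger share than elsewhere. Of their PCDH7 positions with orientation, 89.3% (short_PB), 88.7% (short_hyPB), 86.1% (sym_rePB), 89.1% (sym_rehyPB) and 82.5% (WT_PBat) lay at a position of the deep libraries, against 79.6%, 86.4%, 85.1%, 85.4% and 71.8%, in the same order, of their sites elsewhere. Of the PCDH7 sites at such positions, 29.9%, 36.0%, 38.9%, 32.7% and 17.0% were there in the opposite orientation only. For sites outside PCDH7 the last share was 10.3%, 10.02%, 12.8%, 11.1% and 10.5%. With orientation taken into account, 62.6% (short_PB), 56.7% (short_hyPB), 52.6% (sym_rePB), 60% (sym_rehyPB) and 68.4% (WT_PBat) of the sites were also deep sites, against 71.4%, 77.7%, 74.2%, 75.9% and 64.2% elsewhere. They were 3.33%, 3.35%, 1.85%, 2.68% and 1.58% of the 4926 deep PCDH7 sites. By position alone, the share was thus higher inside PCDH7 than elsewhere in each shallow group, and with orientation counted it was lower in the short and symmetric groups and higher in WT_PBat. No test was made of these shares, whose sites lie close together in 1 gene.

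WT_PBat shared 64 sites with the short and symmetric groups, which were 56.1% of its 114 distinct PCDH7 sites and 11.8% of the 542 of those groups. Of its 18449 distinct sites outside PCDH7, 2768 were shared with them, a smaller share.

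The other non-clustered protocadherin genes had lower densities than PCDH7 in every group, though a short gene with a few sites can still lie above the genome's mean. Per 10000 sites and 100 kb of gene, PCDH7 had 5.94 to 9.01 sites in the deep groups and 15.8 to 61.9 in the shallow ones, where the genome's mean is 0.33. PCDH9, the longest of the others at 928 kb, had 0.254 to 0.316 in the deep groups, from 1465 sites in all, and 3 sites in the shallow libraries. PCDH1 had 0.206 to 0.306 in the deep groups and 9 sites in shallow libraries, which over its 25.3 kb gave group densities of 0 to 9.55. PCDH10 had 64 deep sites, PCDH19 23 and PCDH18 21. PCDH12, PCDH20, PCDH8, PCDH17 and PCDH11X had 4 to 9 deep sites each. Of these 10 genes, 7 had no site in any shallow library, and PCDH12 had 1, a density of 3.23 in its group.

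The genes whose levels moved most like those of PCDH7 over the groups were PPP3CA, a catalytic subunit of calcineurin, VTI1A, ANXA3, a calcium-binding annexin, PDE4B, a phosphodiesterase of cyclic AMP, and MALL. Pearson's r of log2(sites per 10000 + 0.5) over the 9 group means was 0.995 for PPP3CA and VTI1A, 0.994 for ANXA3 and 0.988 for PDE4B and MALL. Over all 66 genes with a site in every library the median r was 0.89, and the groups share their libraries and depth. For PPP3CA the level was 13.7 per 10000 sites in WT_PB and 52.0 in both sym_rePB and sym_rehyPB. For VTI1A it was 14.4 in WT_PB and 88.2 in sym_rePB.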

How the data were processed

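Insertion sites were taken from 27 lists of peaks, 1 per library, that the authors deposited with no header. Per the labels' protocols, RNA from cells with self-reporting transposons was copied, amplified from inside the transposon, tagmented and sequenced. The submitters' processing notes name cutadapt 3.4, HISAT2 2.2.1.0 and the builds hg38 and GRCh38.p5, without their roles. The peak caller is, like duplicate removal, not given in the sources used here. The deposited coverage values (signal) are the maximum over the peak, called height, and no scaling to library size is seen in the values. A last column, constant in each deposited file, was taken as the library's total, which no label states.

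A site was the start of a peak on the + strand, or its end minus 3 on the − strand, on chromosomes 1 to 22 and X. Sites on both strands at 1 position counted separately. Gene positions came from RefSeq for GRCh38.p14, and the lists' build was checked through the target TTAA. Measures per library were the share of PCDH7 sites on the + strand, the median distance from the start and the relative height. Between groups, 15 effects were tested by exact permutation of labels within pairs of groups that differ in 1 component, except that WT_PBat differs from WT_PB in both transposon and transposase. Another 4 tests flipped the signs of the 9 group means. Benjamini-Hochberg adjustment covered each family, and 0.05 was the threshold. The tests were tested on simulated data. Genes named are PCDH7, the other non-clustered protocadherins, neighbours, runners-up and the 5 most alike, positions are the 6 in the most libraries, and windows the densest and sparsest of 20. PCDH7, these lists and the tests were chosen with earlier results of these data known. The alternatives were sites of height 10 or more, equal numbers of tallest sites, means for medians, linked libraries averaged, a replicate block and each replicate left out. Positions counted once, flanks without an added count and the 4 deep groups alone were added after the data were seen. The labels give no batch. Python 3.11.15, numpy 2.4.6, pandas 2.3.3 and scipy 1.17.1 were used.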

Additional observations from a re-analysis of the deposited data

Results flagged for a closer look

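The effect of the hyperactive transposase on the position of PCDH7 sites went in opposite directions in 2 pairs of groups, without overlap between libraries in either. The median distance from the start of the gene was 9.26 kb greater in WT_hyPB (189 ± 2.65 kb) than in WT_PB (180 ± 4.57 kb), and it differed by −7.47 kb between WT_rehyPB (175 ± 8.91 kb) and WT_rePB (183 ± 0.95 kb), with n = 3 each. The remaining pairs gave 9.32 kb for short_hyPB against short_PB and 0.36 kb for sym_rehyPB against sym_rePB, both with overlap. An exact permutation test of the difference between the 4 pairs did not pass the threshold (p = 0.125, adjusted p = 0.66 over 12 such tests). WT_rehyPB replicate 1, at 165 kb, was 15 kb below the other 2 libraries of its group.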

How the results depend on the processing

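The position effects of the short and symmetric transposons kept their direction under every alternative run, and so did the orientation and flank differences from the library. For the flanks, the added count fixes the sign of the shallow groups at height 10 or more, and that of sym_rePB over all sites. With equal numbers of tallest sites, the symmetric effect on position was −14.0 kb and the effects on relative height were −0.056 for short, −0.088 for symmetric, −0.15 for re-engineering (exact permutation, adjusted p = 0.0375) and −0.039 for hyperactive. Effects on orientation were then 0.19 for hyperactive, 2.70 for short and 0.15 points for piggyBat. At height 10 or more, orientation gave 0.031 for re-engineering and −9.79 for symmetric, with −6.37 for short and −8.21 against the library, position −2.68 kb for hyperactive, relative height −0.0060 for hyperactive, and relative height against the library 0.23. With means for medians, relative height gave −0.0033 for hyperactive and −0.16 for re-engineering (exact permutation, adjusted p = 0.045). The −8.21 points include shallow libraries with 9 to 34 PCDH7 sites each. The causes of these changes were not tested.

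Replicate numbers did not pair the libraries in general: over 66 genes, deviations of same-numbered libraries correlated at −0.29 to 0.29, above 0.1 in 10 of 33 cases. The 3 cases of WT_hyPB against short_hyPB were all above 0.1 (0.107 to 0.22), and no other of the 11 pairs of groups had all 3. With the replicate block the values stayed at −59.2 and −51.7 kb for position and −0.67 and −0.53 for relative height with the short and symmetric transposons. The smallest exact permutation p is then 0.0313, so that adjusted p was 0.117. The 4 deep groups alone gave −2.59 points for orientation, 0.61 for relative height, 0.86 for the lower and 1.44 for the upper flank, with an exact permutation p = 0.125, the smallest 4 groups allow.

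PCDH7 sites per 10000 moved at height 10 or more to 47.1 (WT_PB), 50.5 (WT_hyPB), 30.8 (WT_rePB), 38.3 (WT_rehyPB), 224 (short_hyPB) and 338 (sym_rePB). Over the tallest sites they moved to 251, 305, 228 and 162 in the deep groups in the same order and to 253 in sym_rehyPB. With each position counted once they were 34.3, 34.8, 23.1 and 30.1 in the deep groups.

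Leaving out each replicate in turn gave −0.59 to 0.45 points for the hyperactive, −0.48 to 0.14 for the re-engineering, −1.67 to 0.21 for the short and −0.59 to 1.51 for the symmetric effect on orientation. It gave −0.0077 to 0.029 for the hyperactive and −0.21 to −0.15 for the re-engineering effect on relative height, and 0.29 to 0.31 for relative height against the library. For piggyBat it gave −5.77 to −1.61 points on orientation, and for position 1.49 to 4.16 kb for the hyperactive and −7.04 to −3.15 kb for the re-engineering effect. Depth limits the shallow groups most: their medians of height lie at the bottom of the listed range, and no absence of sites there is shown.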
